A study of Mus musculus with 6 samples.

Results

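The 10 genes described here cover the route from glucose uptake to lactate. They are the glucose transporter gene Slc2a1 and the genes of glycolytic enzymes Hk1, Hk2, Pfkp, Aldoa, Gapdh, Pgk1, Eno1, Pkm and Ldha. They were chosen by name, and each was found by its Ensembl identifier among the 42256 genes of the count table. All 10 were among the 15840 genes that passed the filter on low counts. RNA was sequenced from 6 libraries of PDGFRa+ cells, which the submitters call fibroblast-like, sorted by flow cytometry from the scar of mouse hearts 7 days after injury. The receptor PDGFRa on the cell surface is a marker of cardiac fibroblasts.

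The 2 control libraries came from Htr2bfl/fl mice, in which both copies of the serotonin receptor gene Htr2b are floxed. The 4 Htr2b_cKO libraries came from Htr2bfl/flPostnMCM/+ mice, which also carry a tamoxifen-inducible Cre at 1 copy of Postn, which encodes periostin and is turned on in activated fibroblasts, so recombination is driven in that lineage. All mice shared the Mixed 129S2/C57Bl6 strain, the injury and tamoxifen chow, begun 1 week before the injury and kept up throughout. Neither control carried a Cre, so what the Cre or the altered Postn copy does cannot be told apart from what losing Htr2b does. The comparison asks whether glycolytic gene expression in scar fibroblasts differed when Htr2b was targeted in myofibroblasts.

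Glycolysis turns glucose into pyruvate in the cytosol and yields ATP without oxygen. Slc2a1 brings glucose into the cell, hexokinase traps it as a phosphate ester, and phosphofructokinase commits it to the pathway. Lactate dehydrogenase then turns pyruvate into lactate and restores the cofactor that Gapdh uses up. Hypoxia-inducible factor raises transcription of many of these genes, and activated fibroblasts in several tissues are known to use glycolysis heavily.

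Library totals ran from 28533427 to 37392496 estimated counts, so a count of 0 allows at most 0.108 CPM, a limit that covers counting error only. Htr2b itself had 13 and 7 counts in control and 0, 3, 29 and 4 in Htr2b_cKO 1 to 4, so the library labelled Htr2b_cKO 3 lay above both controls. Deletion of the floxed exon is not visible in counts summed over the gene, so these few counts cannot settle whether a label is right. Postn was at 2309 and 1586 CPM in control and 982 to 2312 CPM in Htr2b_cKO. Htr2b_cKO 4 was the only male by its sex-linked genes. The sorting marker Pdgfra was at 668 to 1237 CPM in every library. The summed level of 10 fibroblast markers was 81271 to 133381 CPM. The sum of 10 macrophage markers was 2908 and 1027 CPM in control and 947, 2439, 4478 and 547 CPM in Htr2b_cKO 1 to 4. Summed markers of endothelial cells were at 44.1 to 235 CPM, of cardiomyocytes at 14.3 to 51.2 CPM, and of neutrophils, mural cells, erythroid cells and lymphocytes at 31.0 to 108, 50.3 to 117, 7.55 to 61.0 and 2.41 to 18.8 CPM. Control 1 had the highest sum of each of these 6 lists. No marker of these 8 lists was at 0 in all libraries.

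None of the 10 genes was called different between the genotypes by the edgeR quasi-likelihood test with Benjamini-Hochberg adjustment over all genes tested. Over all genes, 3 of 15840, or 0.0189%, were called at an adjusted p under 0.05. Without adjustment, 9.59% of all genes and 0 of the 10 had a p under 0.05. The groups did not overlap for 19.6% of all genes, with every Htr2b_cKO library on one side of both controls, and they overlapped for all 10 glycolysis genes. DESeq2 called 0.859% and limma voom 0.0126% of all genes, and 0 of the 10. The fitted log2 fold change, Htr2b_cKO minus control, was below 0 for 6 genes and above 0 for 4. Its median was -0.04, beside 0 over all genes tested, and became 0.06 after a correction for GC content and length. Under that correction Hk1, Aldoa, Pkm and Ldha moved above 0 and Pfkp below 0. Each library was taken as 1 animal, and the p-values set the difference between the groups against the spread between these libraries. In sorted bulk cells, fewer cells that express a gene and less of its RNA per cell cannot be told apart.

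**Figure D1:**
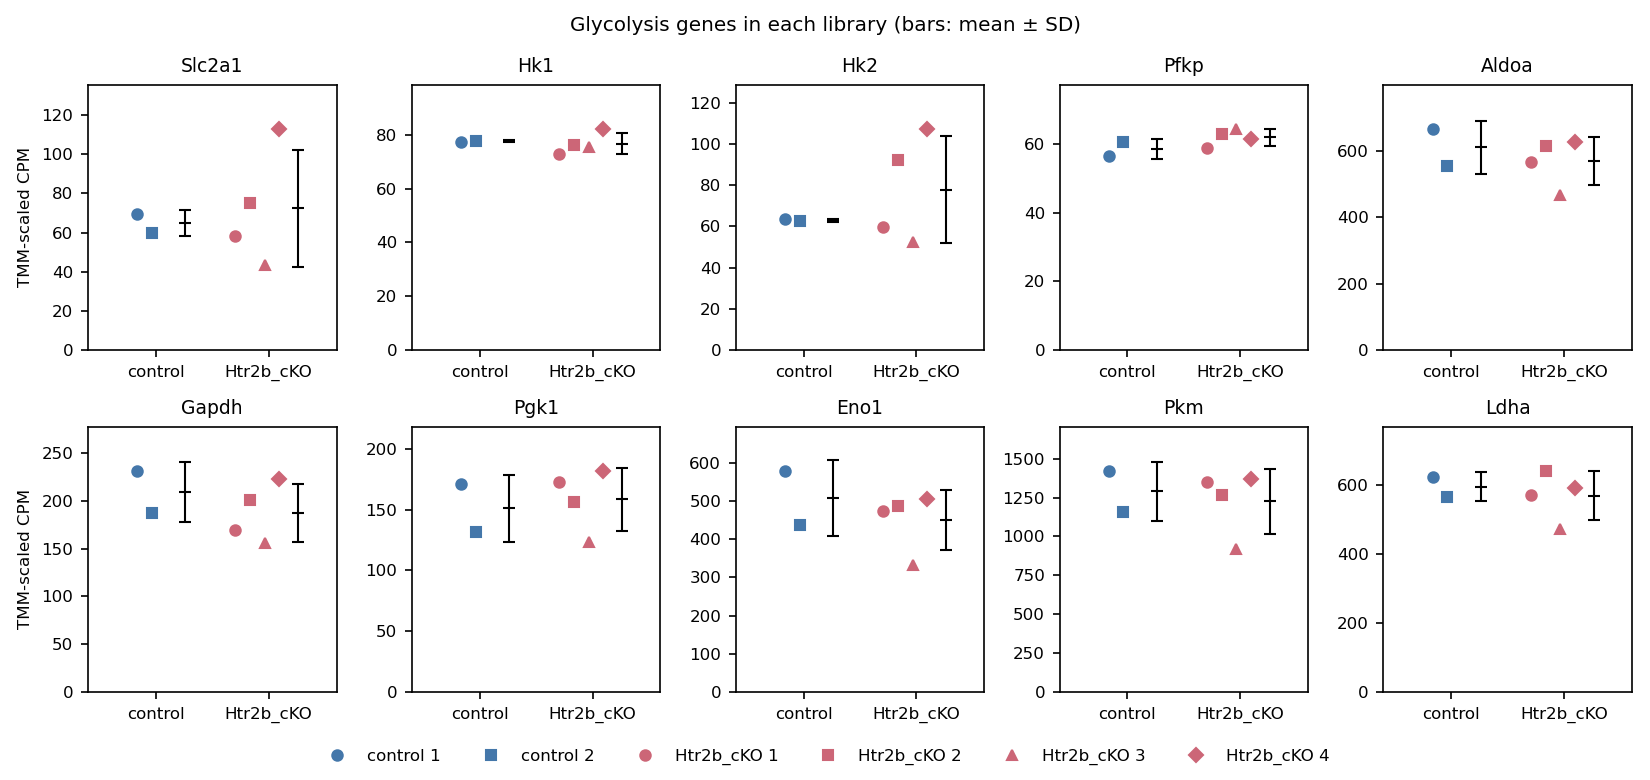
Level of each glycolysis gene as TMM-scaled CPM, by genotype. Each point is 1 library, the bars beside the points give the mean and SD, and every axis starts at 0. In all 10 panels the ranges of the groups overlap, and Slc2a1 and Hk2 are spread widest.

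Slc2a1 encodes the basal glucose transporter of most cells. It stood at 69.3 and 60.0 CPM in control and 58.0, 74.9, 43.5 and 113 CPM in Htr2b_cKO 1 to 4. CPM is the count of a gene scaled to a fixed library total, here with TMM, the trimmed mean of log ratios between libraries, as the scaling. The lowest and the highest library were both Htr2b_cKO, and they differed 2.59-fold, with the 2 controls between them. The log2 fold change came to 0.16 (SE 0.36, edgeR adjusted p = 0.912). An interval of 2 SE on each side runs from -0.55 to 0.87, or 0.683-fold to 1.83-fold, so these libraries do not exclude a change within that range. The estimate turned to -0.14 when Htr2b_cKO 4 was left out.

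Hexokinases phosphorylate glucose on entry. Hk1, the form expressed in most tissues, was nearly level across the libraries, at 77.5 and 77.8 CPM in control and 73.0, 76.1, 75.5 and 82.2 CPM in Htr2b_cKO 1 to 4. Its log2 fold change came to -0.02 (SE 0.12, edgeR adjusted p = 0.974), with 2 SE on each side reaching from 0.836-fold to 1.17-fold. Hk2, the inducible form of muscle and of many growing cells, was at 63.5 and 62.4 CPM in control and 59.5, 92.0, 52.6 and 107 CPM in Htr2b_cKO 1 to 4. Htr2b_cKO 2 and 4 were above both controls, and Htr2b_cKO 1 and 3 were below both. The log2 fold change of Hk2 came to 0.31 (SE 0.29, adjusted p = 0.768), and 2 SE on each side spanned 0.826-fold to 1.86-fold. Leaving out Htr2b_cKO 4 brought it to 0.11.

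Phosphofructokinase catalyses the committed step, and Pfkp encodes its platelet-type subunit. Pfkp was at 56.6 and 60.6 CPM in control and 58.9, 62.9, 64.4 and 61.4 CPM in Htr2b_cKO 1 to 4, so the groups overlapped within a 1.14-fold range. Its log2 fold change of 0.08 (SE 0.12, edgeR adjusted p = 0.863) had 2 SE on each side reaching from 0.894-fold to 1.25-fold.

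Slc2a1 and Hk2 were the most variable of the 10 genes across libraries, and Hk1 and Pfkp were the least. The SD of log2 CPM over the 6 libraries was 0.46 for Slc2a1 and 0.40 for Hk2, larger than for 90.6% and 86.3% of the 10097 genes with a mean log2 CPM of at least 3. For Hk1 it was 0.06 and for Pfkp 0.07, larger than for 0.70% and 1.4% of those genes. The other 6 glycolysis genes lay between the percentiles 25.0, for Ldha, and 65.4, for Eno1. Because these 4 genes mark the ends of the range, the sequence before their start sites is shown, from RefSeq on build GRCm38.p6. Each window holds the 250 bases before the start on the gene's strand, and capitals mark ACGTG or GCGTG, the core letters of the hypoxia response element, or their reverse complements CACGT and CACGC. The Slc2a1 window is chr4:119108495-119108744 on the plus strand.
Slc2a1: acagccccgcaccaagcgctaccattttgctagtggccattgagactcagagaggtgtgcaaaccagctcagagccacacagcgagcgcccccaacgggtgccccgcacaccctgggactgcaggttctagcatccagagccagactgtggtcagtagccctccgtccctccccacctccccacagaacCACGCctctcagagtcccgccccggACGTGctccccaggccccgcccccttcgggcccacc
The Hk2 window is chr6:82774455-82774704 on the minus strand.
Hk2: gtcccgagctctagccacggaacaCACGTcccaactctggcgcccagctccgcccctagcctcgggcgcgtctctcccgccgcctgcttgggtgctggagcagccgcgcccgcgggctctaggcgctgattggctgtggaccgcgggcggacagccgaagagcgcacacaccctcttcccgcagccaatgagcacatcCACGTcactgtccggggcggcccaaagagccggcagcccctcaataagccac
Hk1 has 2 windows on the minus strand, chr10:62379909-62380158 and chr10:62340422-62340671, and only the latter holds a match.
Hk1: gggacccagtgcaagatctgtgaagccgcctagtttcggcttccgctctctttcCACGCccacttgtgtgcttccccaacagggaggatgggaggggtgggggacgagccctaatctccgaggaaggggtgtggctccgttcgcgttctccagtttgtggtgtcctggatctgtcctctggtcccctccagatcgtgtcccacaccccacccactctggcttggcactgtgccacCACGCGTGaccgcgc
The Pfkp window is chr13:6648772-6649021 on the minus strand.
Pfkp: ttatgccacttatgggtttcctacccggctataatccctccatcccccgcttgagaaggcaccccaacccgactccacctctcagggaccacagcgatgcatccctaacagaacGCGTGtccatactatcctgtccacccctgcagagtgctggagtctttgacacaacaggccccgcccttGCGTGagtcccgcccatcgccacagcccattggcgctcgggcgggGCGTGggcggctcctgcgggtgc

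Slc2a1 had 2 matches, at positions -61 and -36, and Hk2 had 2, at -226 and -52, counted back from the start site. Hk1 had 3 in the window shown and Pfkp had 3. Over all 17 windows of the 10 genes, 14 held ACGTG or GCGTG on either strand, or 82.4%, beside 38.6% of 32851 windows of the same length in the RefSeq table. ACGTG alone was in 7 of the 17, or 41.2%, beside 16.6% of all windows. Some windows of Eno1 and of Aldoa overlap, so the same match is counted in more than 1 of them. By gene, 10 of 10 had at least 1 window with either form and 6 of 10 had one with ACGTG, beside 41.5% and 18.5% of 27025 genes. The count by gene favours the 10 genes, which had more windows per gene, 17 for 10 beside 32851 for 27025. Both forms contain CG, and the windows compared were not matched for GC content. A match describes letters in a window and is not a mapped binding site, and a window without one says nothing about the factor.

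Aldolase splits the doubly phosphorylated sugar into triose phosphates, and Aldoa encodes its muscle and ubiquitous form. Aldoa (chr7:126795234-126800751, minus strand, as all gene positions here from GENCODE M21 on mm10) was at 666 and 553 CPM in control and 565, 614, 467 and 626 CPM in Htr2b_cKO 1 to 4. The highest library was control 1 and the lowest was the library labelled Htr2b_cKO 3. It had a log2 fold change of -0.10 (SE 0.18, edgeR adjusted p = 0.883). Here 2 SE on each side ran from 0.730-fold to 1.19-fold. Leaving out control 1 gave 0.04, and the GC and length correction gave 0.10.

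Gapdh, Pgk1 and Eno1 have near-identical copies elsewhere in the genome, nearly all annotated as processed pseudogenes, and many counts stood under those copies. Gapdh encodes the dehydrogenase that makes the first reduced cofactor of the pathway. The count table lists 163 near-identical copies of it, of which 100 had counts and 13 had at least 1% of the counts of Gapdh. Copies were taken as transcripts matching a gene's transcript over at least 80% of the copy at 90% identity or more. The Gapdh row held 19.2% of all counts of Gapdh and these copies, and 17.7% to 20.4% in single libraries. Gm7336 alone averaged 285 CPM and was above the Gapdh row in every library.

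The sequences show how little separates the rows. A copy without substitution over the Gapdh reading frame, Gm12671 (chr4:91851668-91852669, minus strand), and one with a single substitution, Gm12537 (chr4:57370953-57371954, minus strand), are set beside Gapdh (chr6:125161715-125166467, minus strand). All 3 stretches are read from GENCODE M21 transcripts on build mm10 over bases 465 to 525 of the Gapdh frame, counted from 1 at the A of its start codon. The capital marks the only base that differs, C495T, with the base of Gapdh first and that of Gm12537 last.
Gapdh: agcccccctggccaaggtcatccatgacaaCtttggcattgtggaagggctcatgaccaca
Gm12671: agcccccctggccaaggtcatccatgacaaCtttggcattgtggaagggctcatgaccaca
Gm12537: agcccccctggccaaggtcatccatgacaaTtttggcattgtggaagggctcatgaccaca

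The 3 copies with 0 substitutions over the 1002 bases of the frame, Gm7336, Gm10359 and Gm12671, carried the most counts and averaged 167 to 285 CPM. The 7 copies with 1 substitution averaged 9.0 to 41.2 CPM, the 2 with 3 substitutions 6.1 and 7.0 CPM, and the 1 with 4, Gm3272, 16.5 CPM. Reads that lie inside identical sequence cannot be assigned to 1 row from the read alone, and the rule by which the authors' counter divided them is not given in the sources used here. The 7 copies with 1 substitution are Gm14760, Gm2606, Gm12537, Gm12033, Gm5559, Gm12070 and Gm13394, and the 2 with 3 are Gm5138 and Gm2574.

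The Gapdh row was at 232 and 187 CPM in control and 169.5, 201, 155 and 223 CPM in Htr2b_cKO 1 to 4, with a log2 fold change of -0.16 (SE 0.18, edgeR adjusted p = 0.806). Summed with its copies it was at 1199.7 and 949.5 CPM in control and 959, 1039, 855 and 1094 CPM in Htr2b_cKO 1 to 4, with a log2 fold change of -0.12 (SE 0.18, adjusted p = 0.855). Both readings placed control 1 highest and the library labelled Htr2b_cKO 3 lowest, and both groups overlapped.

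Pgk1 (chrX:106187100-106203699, plus strand), the kinase gene that makes the first ATP of the pathway, held 54.6% of the counts of its family. The copies Gm5537 on chromosome 3 and Pgk1-rs7 on chromosome 12 have 0 substitutions over the aligned 1252 and 1253 of the 1254 bases of its frame. The Pgk1 row was at 171 and 131 CPM in control and 173, 156, 123 and 182 CPM in Htr2b_cKO 1 to 4, with a log2 fold change of 0.07 (SE 0.19, edgeR adjusted p = 0.929). Summed with both copies it was at 318 and 248 CPM in control and 292, 284, 241 and 328 CPM in Htr2b_cKO 1 to 4, with a log2 fold change of 0.02 (SE 0.17, adjusted p = 0.981). The counts under the copies differed in pattern, though reads inside identical sequence cannot be assigned to 1 row from the read alone. Pgk1-rs7 ranged from 28.0 CPM in the library labelled Htr2b_cKO 3 to 74.8 CPM in Htr2b_cKO 4, a 2.68-fold range, while Gm5537 ran from 67.6 to 89.4 CPM and was at 89.4 and 71.3 CPM in those libraries.

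Enolase dehydrates phosphoglycerate, and Eno1 encodes its ubiquitous form. Eno1 held 67.4% of its family's counts, and most of the rest was under Eno1b, a copy which the annotation lists as protein coding. Eno1b had 45.4% and Gm4735 3.07% as many counts as Eno1. Eno1b differs from Eno1 by 8 substitutions over 1305 aligned bases, more than Gm4735. Gm4735 (chr2:80837141-80838442, plus strand) differs from Eno1 (chr4:150236721-150248879, plus strand) by 5 substitutions over 1302 aligned bases. The first of them, T726C, is also found in Eno1b. It is the capital in these stretches of bases 696 to 756 of the Eno1 frame, taken from the same transcripts and build.
Eno1: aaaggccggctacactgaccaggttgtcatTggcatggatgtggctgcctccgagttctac
Gm4735: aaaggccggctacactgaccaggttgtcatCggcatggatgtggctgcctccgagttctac
The Eno1 row was at 579 and 438 CPM in control and 474, 488, 333 and 505 CPM in Htr2b_cKO 1 to 4, with a log2 fold change of -0.18 (SE 0.21, edgeR adjusted p = 0.817). Summed with its copies it was at 849 and 643 CPM in control and 713, 715, 509.7 and 751 CPM in Htr2b_cKO 1 to 4, with a log2 fold change of -0.15 (SE 0.21, adjusted p = 0.844). The library labelled Htr2b_cKO 3 was the lowest in both readings, and control 1 was the highest. The estimates turned to 0.04 and 0.06 without control 1.

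**Figure D2:**
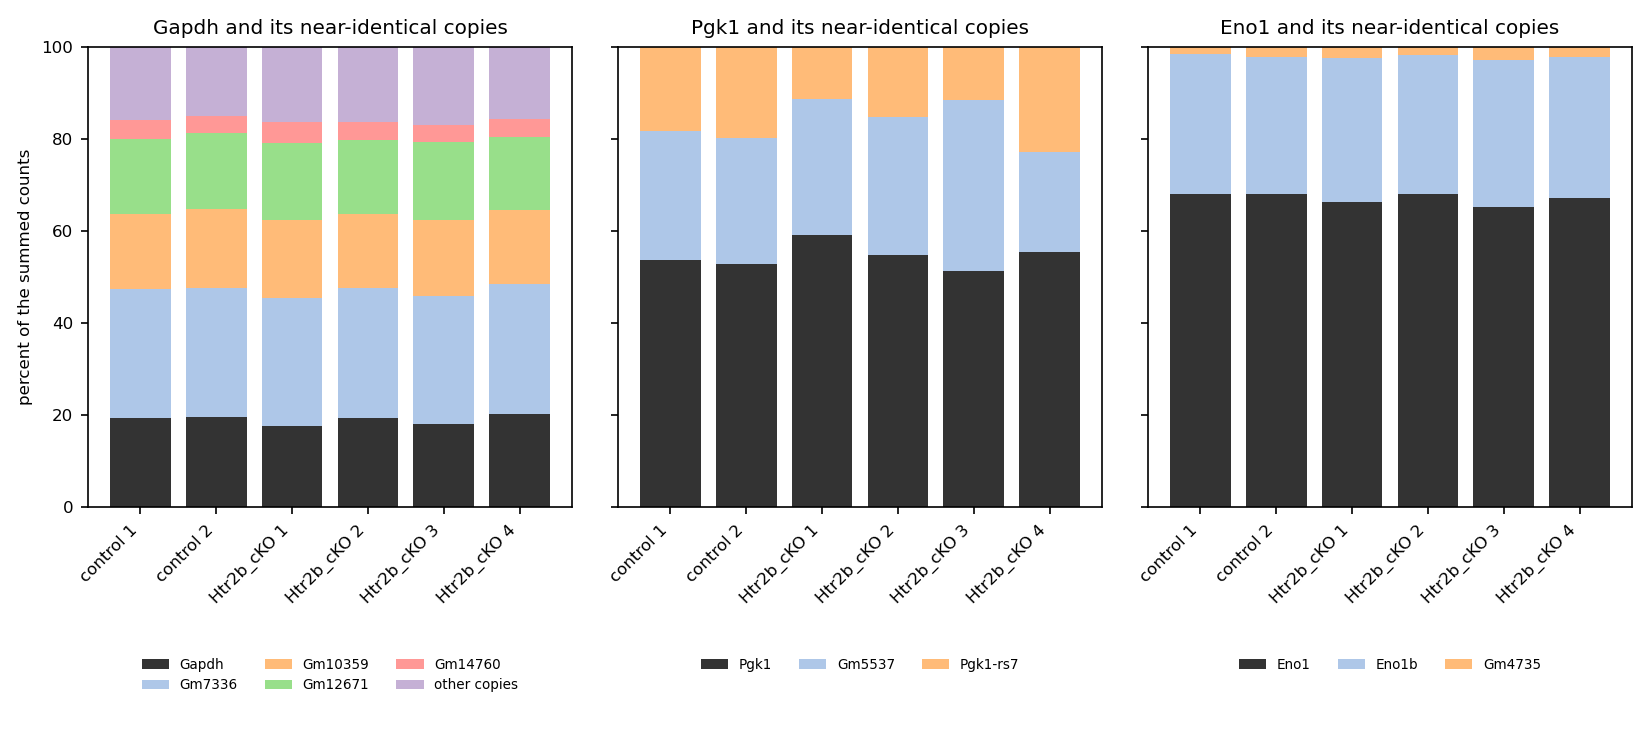
Share of the summed counts of Gapdh, Pgk1 and Eno1 and their near-identical copies that was counted under each row, in percent, for each library. Dark bars are the gene itself, which held 17.7% to 20.4% for Gapdh, 51.2% to 59.3% for Pgk1 and 65.3% to 68.2% for Eno1.

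The last steps were counted almost entirely under their own rows. Pkm encodes the pyruvate kinase of most tissues outside liver and red cells, and the counts do not separate its splice forms. Pkm (chr9:59656368-59679375, plus strand) was at 1422 and 1156 CPM in control and 1348, 1266, 919 and 1367 CPM in Htr2b_cKO 1 to 4, with a log2 fold change of -0.07 (SE 0.21, edgeR adjusted p = 0.934). Ldha (chr7:46841475-46855627, plus strand), the lactate dehydrogenase subunit that favours lactate formation, was at 624 and 566 CPM in control and 570.5, 642, 473 and 592 CPM in Htr2b_cKO 1 to 4. Its log2 fold change came to -0.06 (SE 0.17, adjusted p = 0.927). For both genes the library labelled Htr2b_cKO 3 was the lowest of the 6, and the groups overlapped. The 2 SE interval ran from 0.711-fold to 1.27-fold for Pkm and from 0.758-fold to 1.21-fold for Ldha. Leaving out control 1 or the library labelled Htr2b_cKO 3 gave 0.08 and 0.05 for Pkm and 0.01 and 0.03 for Ldha.

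**Figure D3:**
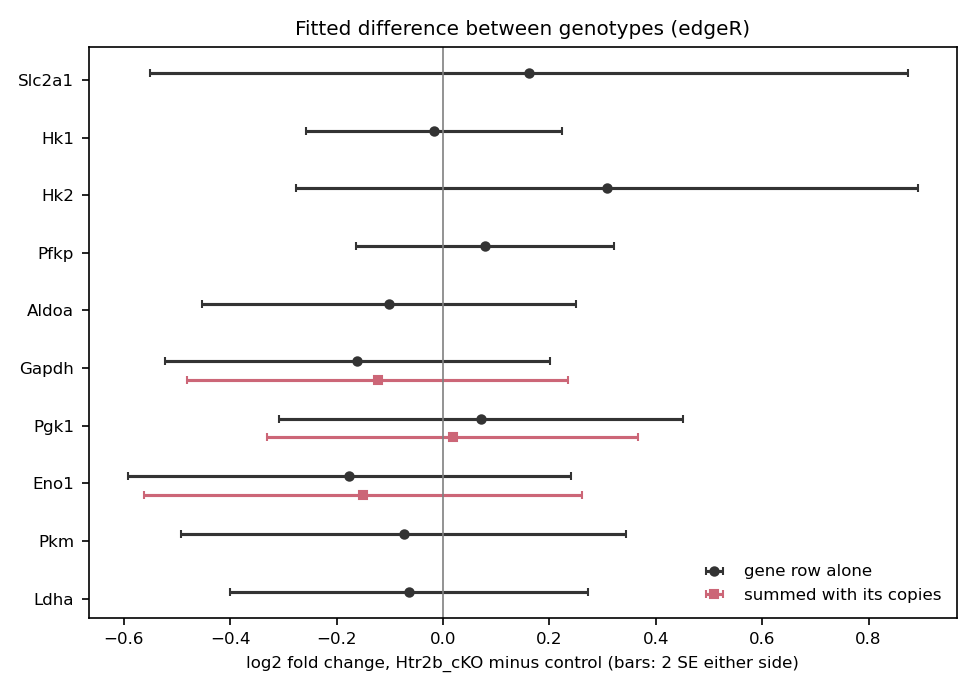
Fitted log2 fold change of each gene, Htr2b_cKO minus control, from the edgeR fit, with bars of 2 SE on each side. Red squares repeat Gapdh, Pgk1 and Eno1 summed with their near-identical copies, and every bar crosses 0.

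Across libraries most of the 10 genes shared high and low values that cut across the genotypes. In the library labelled Htr2b_cKO 3, 8 of the 10 were at their lowest, and the median of their log2 CPM, each centred on its mean over the 6 libraries, was -0.32. In Htr2b_cKO 4 all 10 were above their own mean, with a median of 0.14. In control 1, 8 were above their mean, with a median of 0.13, and 4 were at their highest. Control 2 had a median of -0.07 and 1 gene above its mean, Htr2b_cKO 1 a median of -0.04 and 3 genes, and Htr2b_cKO 2 a median of 0.07 and 9 genes. The exceptions in the library labelled Htr2b_cKO 3 were Hk1, whose lowest value was in Htr2b_cKO 1, and Pfkp, which was highest there. Pfkp was lowest in control 1, and Hk1 was nearly level, at -0.08 to 0.10 around its mean.

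That same library had the highest macrophage marker sum, 4478 CPM, and the lowest fibroblast marker sum, 81271 CPM. Of the macrophage markers, Cd14 was highest in control 1, at 307 CPM, and Itgam in Htr2b_cKO 2, at 120 CPM. The others were highest in the library labelled Htr2b_cKO 3. Lyz2 made up most of the macrophage sum there, at 2517 CPM. Col1a1, Col1a2 and Col3a1 made up most of the fibroblast sum there, at 17266, 16903 and 34098 CPM. Pdgfra and Pdgfrb were also lowest in that library, whereas Dcn, Lum, Tcf21 and Postn were highest in it. Postn and Vim were lowest in Htr2b_cKO 4. Htr2b_cKO 4, where all 10 genes were above their mean, had the lowest macrophage sum, 547 CPM, and the highest fibroblast sum, 133381 CPM. Control 1 did not follow this order, with a macrophage sum of 2908 CPM. It also had the highest summed endothelial and cardiomyocyte markers, at 235 and 51.2 CPM beside 44.1 to 88.1 and 14.3 to 34.7 CPM in the other 5 libraries, and the highest neutrophil, mural, erythroid and lymphocyte sums. The part of these cells in the glycolytic levels was not tested. The male library is also Htr2b_cKO 4, and sex cannot be told apart from that library. Without the library labelled Htr2b_cKO 3 and without Htr2b_cKO 4, both left out together, the median log2 fold change of the 10 genes was 0.02, and 0 of the 10 were called.

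**Figure D4:**
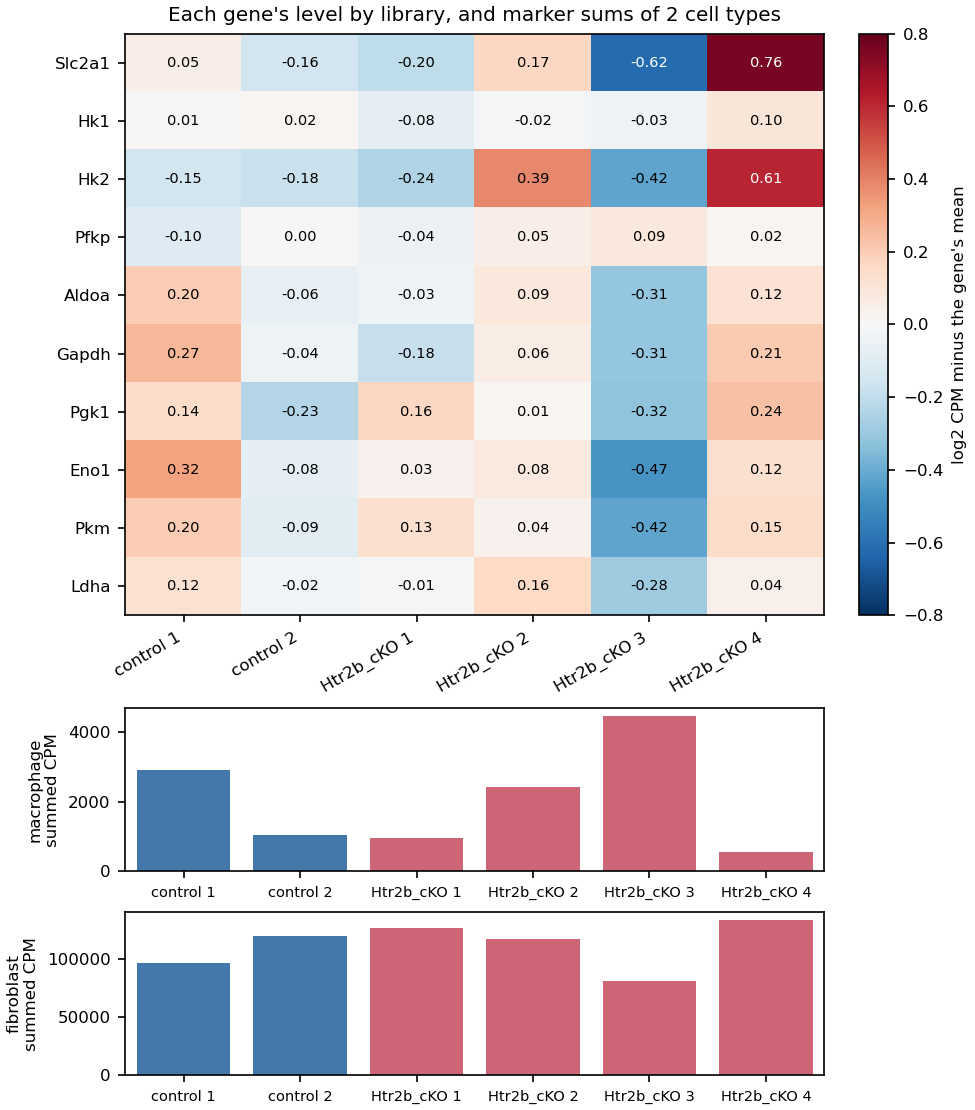
Top: log2 CPM of each gene minus its mean over the 6 libraries, with blue below and red above the mean. Bottom: summed CPM of 10 macrophage and 10 fibroblast markers in the same libraries, in which the library labelled Htr2b_cKO 3 has the highest macrophage sum and the lowest fibroblast sum. Most of the fibroblast sum is Col1a1, Col1a2 and Col3a1, and Dcn, Lum, Tcf21 and Postn of that list are highest in that library. Most of the macrophage sum in that library is Lyz2, and Cd14 and Itgam are highest in other libraries.

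The genes most like the glycolysis profile were ranked by the root mean square difference of centred log2 CPM over the 6 libraries from the median profile of the 10 genes. Ppme1, which encodes a methylesterase of a protein phosphatase, was closest at 0.037. Pgam1, the phosphoglycerate mutase between Pgk1 and enolase, came next at 0.041, followed by Nsun4 at 0.046 and Chtf18 at 0.047. Pgam1 was at 242 and 218 CPM in control and 214, 236, 169 and 240 CPM in Htr2b_cKO 1 to 4, again lowest in the library labelled Htr2b_cKO 3.

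Levels between genes were compared as CPM per kilobase of the longest protein-coding transcript, averaged over the 6 libraries. On that scale the lower part of the pathway was expressed far above the uptake and trapping steps. With its copies Gapdh was highest at 716 CPM per kilobase, then Pkm at 512, Aldoa at 375, Eno1 with its copies at 344, Ldha at 318 and Pgk1 with its copies at 156. Slc2a1 was at 21.4, Hk1 at 18.0, Pfkp at 14.7 and Hk2 at 13.2 CPM per kilobase. Group means on this scale were 530 in control and 504 in Htr2b_cKO for Pkm, and 19.8 and 22.2 for Slc2a1.

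At each step the forms other than the chosen gene were compared on the same scale, as shares of the step's summed CPM per kilobase. Slc2a1 held 84.9% to 91.7% of the transporter genes Slc2a1, Slc2a3 and Slc2a4. Aldoa held 99.5% to 99.8% of aldolase, Eno1 with its copies 95.4% to 96.7% of enolase, and Pkm at least 99.99% of pyruvate kinase. Phosphofructokinase was the exception, since the liver-type Pfkl held 50.5% to 64.2% and Pfkp 19.2% to 30.1%. Hk1 held 46.9% to 58.5% and Hk2 31.6% to 49.0% of hexokinase. Hk3, a hexokinase known from myeloid cells, held 11.2% and 4.87% in the control libraries and 5.59%, 8.97%, 9.84% and 1.86% in Htr2b_cKO 1 to 4. The lowest Hk3 share was in the library with the lowest macrophage sum, and the part of macrophages in it was not tested.

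Among the glycolysis genes outside the 10, the smallest p belonged to a lactate dehydrogenase subunit. Ldhb, the heart-type subunit that favours oxidation of lactate, was at 69.2 and 87.5 CPM in control and 57.9, 46.4, 51.9 and 49.8 CPM in Htr2b_cKO 1 to 4. All 4 Htr2b_cKO libraries were below both controls, as for 8.98% of all genes. The log2 fold change came to -0.60 (SE 0.15, unadjusted p = 0.00319), and Ldhb was not called (edgeR adjusted p = 0.326, 0.0867 to 0.999 over the alternatives tried, lowest with DESeq2). The GC and length correction brought it to -0.39. Ldhb made up 13.4% and 17.7% of lactate dehydrogenase CPM per kilobase in control and 12.4%, 9.15%, 13.3% and 10.5% in Htr2b_cKO 1 to 4. On this share the groups nearly touched, with control 1 at 13.4% and the library labelled Htr2b_cKO 3 at 13.3%.

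**Figure D5:**
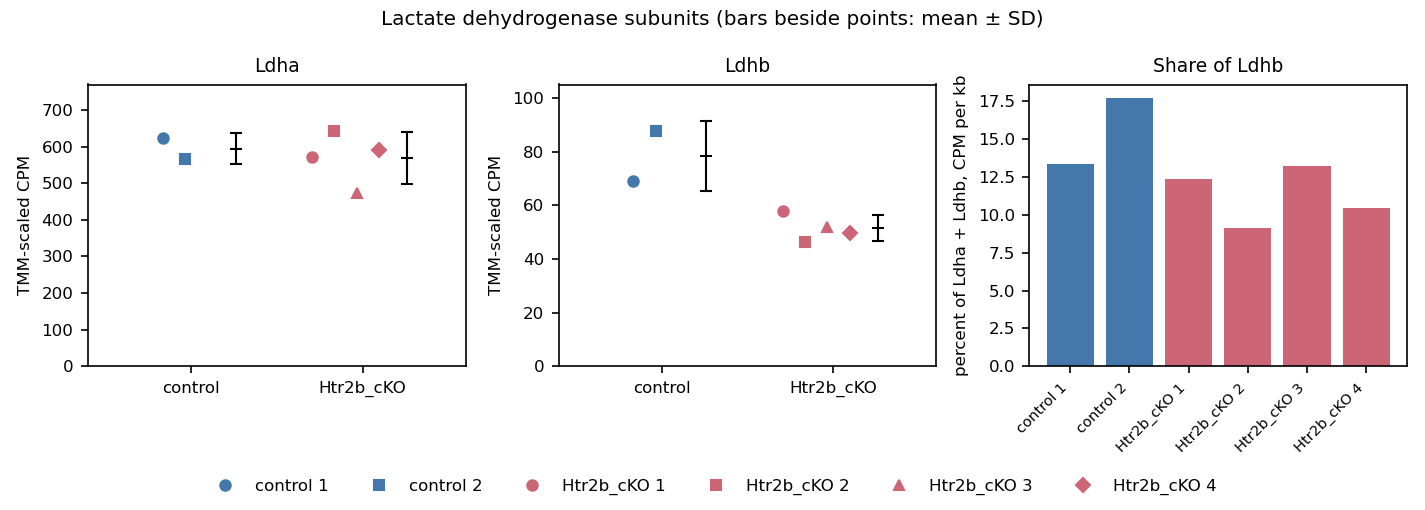
TMM-scaled CPM of the lactate dehydrogenase genes Ldha and Ldhb by genotype, with the mean and SD beside the points, and the share of Ldhb in their summed CPM per kilobase for each library. All 4 Htr2b_cKO points of Ldhb lie below both control points, while those of Ldha overlap them.

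With Ldhb, 22 other glycolysis isoforms and enzymes were listed, of which 15 passed the filter. Of these 15, 0 were called, 4 had a log2 fold change above 0, 2 had an unadjusted p under 0.05, and the median was -0.10, which became 0.10 without control 1. Bpgm, the bisphosphoglycerate mutase that diverts a glycolytic intermediate, was at 8.04 and 7.88 CPM in control and 18.0, 12.2, 13.6 and 9.21 CPM in Htr2b_cKO 1 to 4. Every Htr2b_cKO library was above both controls, as for 10.6% of all genes, and its log2 fold change came to 0.73 (SE 0.27, edgeR adjusted p = 0.463).

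Genes that set fructose bisphosphate levels or run the pathway backwards were balanced, with 4 of 8 tested genes above 0, a median of -0.001 and 0 called. Tigar, a phosphatase that lowers a phosphofructokinase activator, was at 6.97 and 7.56 CPM in control and 4.62 to 6.66 CPM in Htr2b_cKO libraries (a log2 fold change of -0.46, SE 0.24, edgeR adjusted p = 0.594). G6pc3, a glucose phosphatase of most tissues, had a log2 fold change of -0.32 (SE 0.17, adjusted p = 0.591), or -0.10 after the GC and length correction. Of 16 genes for pyruvate and lactate handling, 8 were above 0 and 0 were called, with a median of -0.004, or 0.03 after the GC and length correction. Slc16a7, a monocarboxylate transporter at 1.46 and 0.976 CPM in control and 1.53 to 6.73 CPM in Htr2b_cKO libraries, had a log2 fold change of 1.55 (SE 0.72, adjusted p = 0.554). It came to 0.74 with the authors' own factors per gene and library as offsets and to 1.02 after that correction. Dld, a subunit of pyruvate dehydrogenase, had 0.33 (SE 0.16, adjusted p = 0.571), or 0.07 after the same correction.

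The pentose phosphate pathway branches off after hexokinase. Of its 8 genes, 7 had a log2 fold change below 0 and 0 were called. The median was -0.26, beside 0 over all genes tested. Pgls, its lactonase, was at 57.2 and 51.7 CPM in control and 39.8, 40.8, 45.9 and 41.4 CPM in Htr2b_cKO 1 to 4. All 4 were below both controls, as for 8.98% of all genes (log2 fold change -0.38, SE 0.13, edgeR adjusted p = 0.427). Rpe, its epimerase, had a log2 fold change of 0.31 (SE 0.18, adjusted p = 0.621). The GC and length correction brought the median to -0.13, Pgls to -0.22 and Rpe to 0.01.

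Downstream of pyruvate, 12 of 15 genes of the citric acid cycle had a log2 fold change below 0, and 0 were called. The median was -0.17, beside 0 over all genes tested. Htr2b_cKO was lower without overlap for 4 of the 15 and higher for 1, beside 8.98% and 10.6% of all genes. Mdh2, the mitochondrial malate dehydrogenase, was at 164 and 155 CPM in control and 108 to 144 CPM in Htr2b_cKO libraries, without overlap (a log2 fold change of -0.33, SE 0.15, edgeR adjusted p = 0.520). Sucla2, a subunit of succinate ligase, was at 35.1 and 43.7 CPM in control and 45.1 to 54.7 CPM in Htr2b_cKO libraries, also without overlap (a log2 fold change of 0.30, SE 0.15, adjusted p = 0.588). The GC and length correction brought the median to -0.05, Mdh2 to -0.22 and Sucla2 to 0.13.

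Of 24 tested genes of the hypoxia pathway and its targets outside glycolysis, 14 were above 0, the median was 0.08, or -0.03 without Htr2b_cKO 4, and 0 were called. Bhlhe40, a transcriptional repressor induced by hypoxia, was at 96.2 and 99.5 CPM in control and 127, 175, 137 and 138 CPM in Htr2b_cKO 1 to 4. Every Htr2b_cKO library was above both controls, as for 10.6% of all genes, with a log2 fold change of 0.56 (SE 0.16, edgeR adjusted p = 0.385). Kdm3a, a histone demethylase that the same pathway induces, was at 26.2 and 26.5 CPM in control and 31.5 to 37.2 CPM in Htr2b_cKO libraries (a log2 fold change of 0.35, SE 0.14, adjusted p = 0.488), or 0.16 after the GC and length correction. Of 8 other regulators of glycolysis, 4 were above 0 and 0 were called, with a median of 0.12 that became -0.03 after the GC and length correction and -0.12 with limma voom. Prkaa1, a catalytic subunit of AMP-activated kinase, had a log2 fold change of 0.33 (SE 0.14, adjusted p = 0.510), or 0.01 after that correction. Myc, a transcription factor that activates many glycolysis genes, was at 70.4 and 89.6 CPM in control and 95.0, 158, 83.8 and 159 CPM in Htr2b_cKO 1 to 4 (log2 fold change 0.63, SE 0.30, adjusted p = 0.571).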

How the data were processed

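The authors deposited a table of estimated counts per Ensembl gene, whole numbers that are not normalized, whose column names, per the file headers, look like transcript quantifier output summed by gene. No value was altered before testing. A normalized signal deposited by the authors scales each estimated count by its own factor per gene and library, and it entered only as offsets in an alternative. Per the submitters' processing notes, DRAGEN, DESeq2 and mm10 are the tools and build named, with no version or role. How reads were assigned to strands, annotation or several matching genes is not stated in any source used, so overlapping genes may share reads.

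All 42256 identifiers matched GENCODE M21 on mm10. Genotype was tested over all 6 libraries in a two-sided edgeR quasi-likelihood fit (edgeR 4.0.16, R 4.3.3) with TMM scaling, filterByExpr and robust dispersions; an adjusted p under 0.05 was a call. The SE was derived from the fold change and its F statistic. A range of 2 SE on each side can leave out 0 although the p is above 0.05. For Dld it ran from 0.008 to 0.649, with an unadjusted edgeR p of 0.0722. A permutation test of 1 gene over 2 and 4 libraries could not go below 0.0667. The scripts were tested on simulated data. Near-identical copies were found with blastn 2.17.0 and compared over the longest reading frame of the gene's transcript. Motif positions are counted back from the RefSeq start site.

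The genes and lists were chosen with earlier results of these data known. Named genes were the 10 glycolysis genes, Htr2b and Postn; the 2 genes of each list with the smallest p, as none was called; copies with at least 1% of a gene's counts; the 5 genes with the most similar profile, of which 1 is not reported here; and the other forms of each step for their level. Pdgfra was named as the sorting marker. Alternatives were other scalings, a GC and length correction, no filter, DESeq2 1.42.0, limma 3.58.1 (voom), other dispersions, each library left out and counts summed with copies.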

Additional observations from a re-analysis of the deposited data

Results flagged for a closer look

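Dixon's ratio, the gap of the most extreme value to its neighbour over the whole range, was computed for the 4 Htr2b_cKO libraries of 44 genes and sums, and 2 exceeded the critical value for 4 samples. Chance alone flags about 1 in 20 such groups. Eno1 with its copies stood at 509.7 CPM in the library labelled Htr2b_cKO 3, beside 713 to 751 CPM in the other 3, with a ratio of 0.84. Rpe, the epimerase of the pentose phosphate pathway, stood at 19.2 CPM in Htr2b_cKO 1, beside 25.8 to 26.4 CPM in the other 3, with a ratio of 0.92. The control group holds 2 libraries and was not examined in this way.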

How the results depend on the processing

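None of the 10 genes was called under the 17 alternatives. Of 206 fold changes of the 10 genes and 3 sums, 182 kept their direction, 24 changed it, at sizes of 0.14 or less, and 0 passed the threshold, with a lowest adjusted p of 0.472. Corrected for GC content and length, the log2 fold change was 0.03 for Hk1, -0.05 for Pfkp, 0.10 for Aldoa, 0.05 for Pkm, 0.07 for Ldha and 0.01 for Gapdh with its copies. Without Htr2b_cKO 3 and 4 together it was 0.02 for Pkm and 0.03 for Ldha. Upper-quartile scaling gave -0.02 for Pgk1 with its copies. Leaving out 1 library at a time gave -0.14 to 0.35 for Slc2a1, -0.05 to 0.01 for Hk1, 0.11 to 0.47 for Hk2, 0.03 to 0.14 for Pfkp, -0.22 to 0.04 for Aldoa, -0.30 to 0.00 for Gapdh, -0.10 to 0.27 for Pgk1, -0.36 to 0.04 for Eno1, -0.21 to 0.08 for Pkm and -0.13 to 0.03 for Ldha. For the sums it gave -0.28 to 0.05 for Gapdh, -0.14 to 0.21 for Pgk1 and -0.33 to 0.06 for Eno1. The median of the 10 genes ran from -0.11 to 0.06. Over all genes, 3 were called as reported, 5 without the filter, 136 with DESeq2, 5 without Htr2b_cKO 3 and 4 together, and 1 to 8 when 1 library was left out (1 without control 1, 6 without control 2, 8 without Htr2b_cKO 4). The causes were not tested. The 14 other named genes kept their direction under every alternative run on them, and 0 passed the threshold. They were picked for the smallest p in these same libraries, so a kept direction is no independent support for a difference. Rpe and Prkaa1 fell to 0.01 and Dld to 0.07 after the GC and length correction. The legacy dispersions and the summed copies under a further choice were added after the data had been seen. With 2 controls, leaving 1 out assumes that the other varies like the Htr2b_cKO libraries. No paired analysis was run because the labels pair no control library with an Htr2b_cKO library. The SEs of the 10 genes, 0.12 to 0.36 on the log2 scale, limit what could be detected.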
